A study of Nothobranchius furzeri with 20 samples.

Results

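The 50 genes described here were the most abundant transcripts in muscle of unexercised 9-week killifish. They were chosen by their mean CPM (a gene's counts scaled to a common library total) over the 5 unexercised libraries alone, from 26739 genes in the table, so their levels in that group are a description. Each is called by its rank in that order, from 1 to 50. The last gene inside stood at 2060 ± 178 CPM (SD, n = 5) and the first outside, at rank 51, at 2048 ± 362 CPM (SD, n = 5), so the boundary lay well within the spread between libraries. Members chosen again without each unexercised library in turn shared 49 of the 50 genes with this list every time.

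Muscle RNA of the turquoise killifish Nothobranchius furzeri, an annual fish with a very short life, was sequenced. All fish were males of strain MZM-04/10p. The 20 libraries fell into 5 from unexercised fish of 9 weeks, 5 from fish of 9 weeks exercised in a swim tunnel, a chamber with a current to swim against, and 10 from fish of 27 weeks with the same swim-tunnel label. No unexercised group of 27 weeks was analysed here. Age was therefore compared among exercised fish, and the labels do not say how much either age swam. The labels name no animals, batch or pairing; p-values measure the spread between these samples, which may be technical. Libraries are numbered within a group in the order of their sample codes, which ran in separate blocks for the 3 groups. A difference with age or exercise can therefore not be told apart from a difference between these blocks of codes.

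In vertebrate skeletal muscle a small set of messages makes up much of the polyadenylated RNA. They encode the proteins of the contractile filaments, the proteins that bind and pump calcium during contraction, and the enzymes that regenerate ATP from phosphocreatine and glucose. Which of the 50 genes belong to these classes is not stated below, because the files do not pair their identifiers with names and 0 of 26739 identifiers matched the reference gene table. For the same reason the muscle label could not be set against marker genes. Only 4 identifiers are given, those of the genes with the largest changes among those that passed the test with age.

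The 50 genes took more than every other gene together. They held 55.3% ± 3.08 (SD, n = 5) of the library total in unexercised fish. Exercised 9-week fish had 58.1% ± 2.97 (SD, n = 5) and 27-week fish 58.3% ± 2.47 (SD, n = 10). Single libraries ran from 50.3% to 58.7%, from 53.5% to 60.9% and from 54.3% to 61.7% in these groups, so the groups overlapped. The first 10 genes alone held 36.8% ± 2.08 (SD, n = 5), 39.6% ± 2.84 (SD, n = 5) and 38.5% ± 2.01 (SD, n = 10). Ranks 11 to 50 held 18.5% ± 1.01 (SD, n = 5), 18.5% ± 0.247 (SD, n = 5) and 19.8% ± 0.697 (SD, n = 10). Library totals were between 24333849 and 38571967 counts, and the lowest count of any of the 50 genes in any library was 5188, so all 50 passed the filter on low counts. Bulk values cannot tell fewer cells of a type from less RNA per cell.

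**Figure D1:**
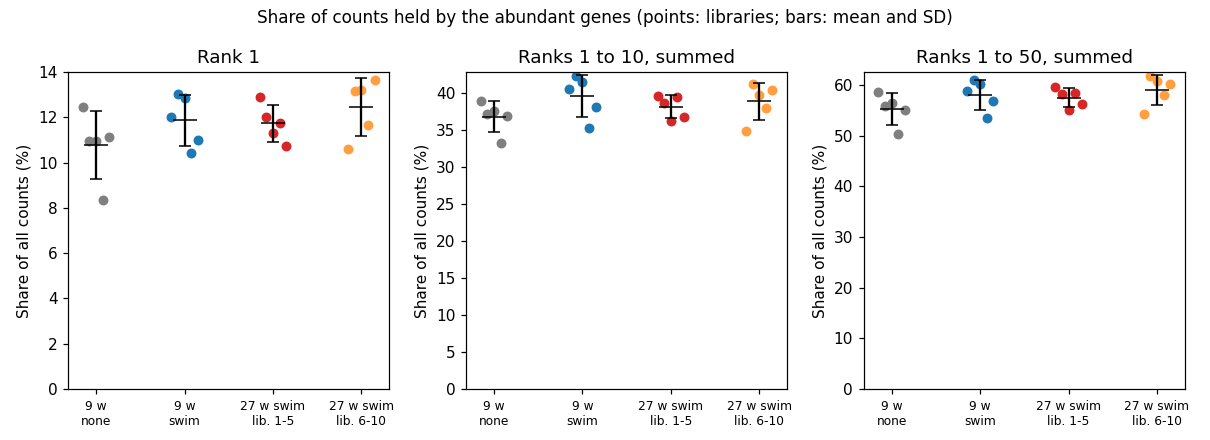
Share of all counts in percent (vertical axes, from 0) held by the gene of rank 1, by ranks 1 to 10 and by ranks 1 to 50, with points for libraries and bars for mean and SD. The 50 genes held between 50.3% and 61.7% of the counts of every library, and the groups overlapped.

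The gene of rank 1 was the most abundant in the mean of each group. In unexercised libraries 1 to 5 it held 12.5%, 10.95%, 10.97%, 8.33% and 11.1% of all counts. In the exercised libraries of 9 weeks the shares were 12.0%, 13.03%, 12.8%, 10.4% and 11.01%. At 27 weeks its share had a lowest value of 10.6%, a median of 11.9% and a highest of 13.7%. The 3 groups overlapped, and the fold change with age among exercised fish did not pass the test (log2 0.01, SE 0.18, edgeR adjusted p = 0.963).

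Rank 2 was the only one of the first 5 genes past the threshold with age. It held 4.39% to 6.52% of the counts of unexercised libraries, with a median of 5.11%. The exercised libraries of 9 weeks had 5.59%, 5.68%, 5.32%, 4.87% and 5.71%. The 27-week libraries ran from 3.33% to 4.76%, with a median of 4.25%, and all 10 lay below all exercised 9-week libraries. The log2 fold change was -0.41 (SE 0.15, edgeR adjusted p = 0.044). That call ended under 17 of the 32 alternatives of scaling, filter, tool and samples. Among them were upper-quartile scaling (edgeR adjusted p = 0.0824) and the fit without 27-week libraries 1 to 5 (log2 fold change -0.16, edgeR adjusted p = 0.271).

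Ranks 3, 4 and 5 came next. Rank 3 had 4.299% ± 0.783 (SD, n = 5) of the counts in unexercised, 4.87% ± 0.92 (SD, n = 5) in exercised 9-week and 5.04% ± 0.631 (SD, n = 10) in 27-week libraries. Rank 4 had 3.65% ± 0.122 (SD, n = 5), 3.42% ± 0.17 (SD, n = 5) and 3.68% ± 0.18 (SD, n = 10) in the same order. For rank 5 the shares were 3.32% ± 0.431 (SD, n = 5), 3.56% ± 0.333 (SD, n = 5) and 3.70% ± 0.668 (SD, n = 10). None of these 3 genes passed the test with age (edgeR adjusted p = 0.96, 0.634 and 0.95).

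**Figure D2:**
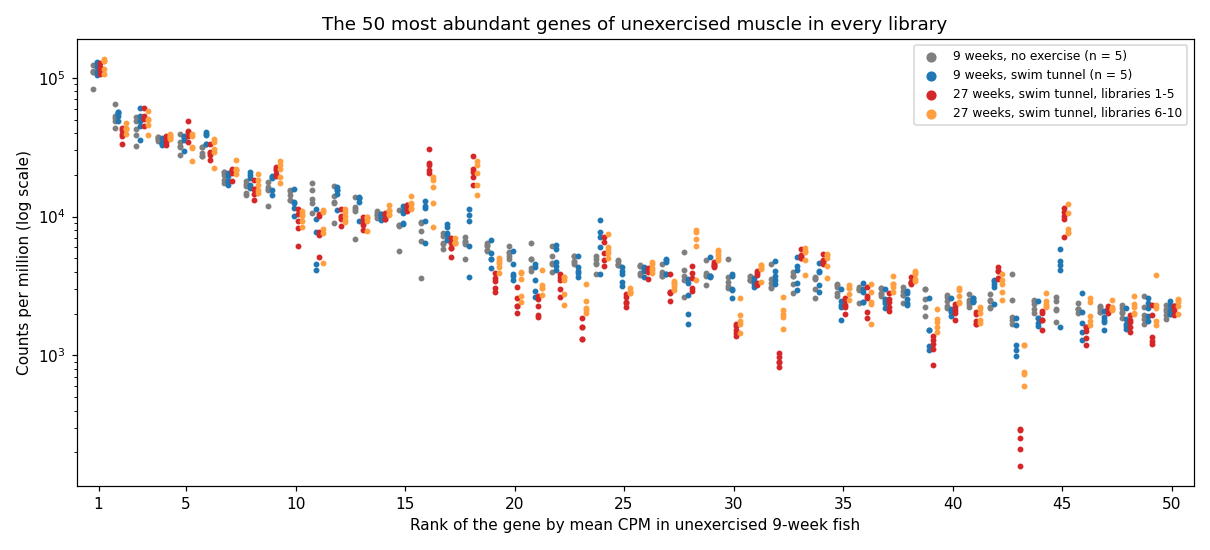
CPM of each of the 50 genes (log scale) in every library, ordered by rank in unexercised 9-week fish; colours mark the groups and the 2 sets of 27-week libraries. Rank 1 stood above every other gene in each library, and ranks 18, 38 and 45 show the 27-week points above all 9-week points.

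A count share grows with the length of a transcript, so levels between genes were compared per kilobase. Lengths of all 50 genes were recovered from the deposited RPKM and counts, with a median of 2405.5 bases and a range of 330 to 88546 bases. Of the 50 genes, 9 (18%) were shorter than 1000 bases and 5 (10%) longer than 10000 bases. Among genes with at least 1 CPM in unexercised fish and a recovered length the shares were 14.7% and 3.10%. Only 28 of the 50 genes were also among the 50 highest by CPM per kilobase.

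On that scale the 342-base gene of rank 6 came first in unexercised fish, at 85505 CPM per kilobase, before rank 1 (1813 bases) at 59428 and rank 5 (1133 bases) at 29308 CPM per kilobase. The 330-base gene of rank 16 took place 5 of that order, with 21968 CPM per kilobase. The longest genes went the other way. Rank 12 (88546 bases) stood at 147 CPM per kilobase and rank 13 (67190 bases) at 163, places 307 and 285 of that order.

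Of the 50 genes, 48 were also among the 50 most abundant of exercised 9-week fish and 44 among those of 27-week fish. Ranks 39 and 43 left the list in exercised 9-week fish, at places 58 and 71. At 27 weeks the genes of ranks 30, 32, 39, 41, 43 and 46 stood at places 55, 68, 70, 51, 188 and 53. In their stead 6 other genes came in at 27 weeks. The one that came in at the highest place was at rank 98 in unexercised fish, with 1184 ± 761 CPM (SD, n = 5), and reached place 13 at 27 weeks, with 10607 ± 3645 CPM (SD, n = 10). Its lowest 27-week library, at 3790 CPM, lay above its highest unexercised library, at 2544 CPM. This gene was picked by its 27-week place, so its distance from unexercised fish is a description. It was already at place 34 in exercised 9-week fish, with 3314 ± 1756 CPM (SD, n = 5). Those libraries ran from 1046 to 5386 CPM and overlapped with the 27-week libraries.

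Counts were fitted with edgeR on TMM scaling, which sets libraries to a common trimmed mean of gene ratios. Among exercised fish, 5 of the 50 genes were higher at the older age and 10 were lower (quasi-likelihood test of edgeR, adjusted p under 0.05). Of all 16653 genes tested 14.8% were higher and 16.8% lower, so the shares of 10% and 20% among the abundant genes were near the background on this scaling. The 50 genes had a median log2 fold change of 0.02 and all tested genes one of 0.03, and the median absolute log2 fold change was 0.28 against 0.40. For the next 50 genes by abundance in unexercised fish the median absolute value was 0.26. A value below that of all genes was therefore not particular to the 50 genes described here. Scaled by the column totals alone, 11 of the 50 were higher and 16 lower, where 12.9% and 15.4% of all genes were. Both shares of the 50 lay above those of all genes there, so their standing against the background depended on the scaling. All 15 genes called with TMM were also called with column totals, in the same direction. The share of all genes called with both scalings is not given here.

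**Figure D3:**
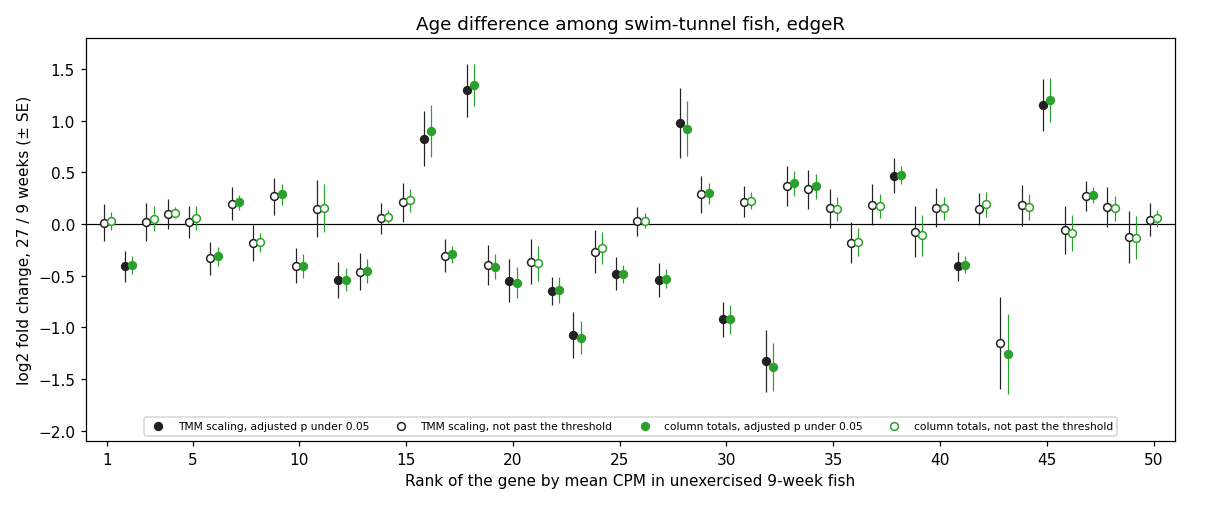
Log2 fold change of the 50 genes at 27 against 9 weeks among swim-tunnel fish, with SE bars, from edgeR with TMM scaling (black) and with column totals (green); filled points passed an adjusted p of 0.05. Ranks 18 and 45 stood highest and ranks 32 and 43 lowest on TMM scaling.

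The 5 genes higher with age, at ranks 16, 18, 28, 38 and 45, together held 2.80% ± 0.635 (SD, n = 5) of the counts of exercised 9-week fish and 5.84% ± 0.71 (SD, n = 10) at 27 weeks. In unexercised fish they held 2.25% ± 0.401 (SD, n = 5). The 10 lower genes, at ranks 2, 12, 20, 22, 23, 25, 27, 30, 32 and 41, held 10.0% ± 0.364 (SD, n = 5) in exercised 9-week fish and 7.03% ± 0.626 (SD, n = 10) at 27 weeks. The other 35 genes held 45.2% ± 2.56 (SD, n = 5) and 45.4% ± 2.46 (SD, n = 10). Of the 50 genes, 3 had all 27-week libraries above all exercised 9-week libraries and 8 had all below, where 1.93% and 5.53% of all genes tested did.

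Rank 18 (Nfu_g_1_023427, 2466 bases) rose most. Its level was 9246, 11417, 10222, 3653 and 6162 CPM in exercised 9-week libraries 1 to 5. At 27 weeks it ran from 14383 to 27389 CPM with a median of 20742 CPM. Every 27-week library lay above every 9-week library, exercised or not, and exercised library 4 was the lowest of all. The log2 fold change with age was 1.29 (SE 0.26, edgeR adjusted p = 0.000946), and the gene went from place 16 to place 9 in the order of abundance. In unexercised fish it stood at 6357 ± 809 CPM (SD, n = 5).

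Rank 45 (Nfu_g_1_001128, 3049 bases) was the next. The exercised 9-week libraries had 4768, 4463, 5852, 1599.9 and 4094 CPM, with library 4 again the lowest. The 27-week libraries lay between 7121 and 12315 CPM, with a median of 9828 CPM, and did not overlap with either 9-week group. The log2 fold change was 1.15 (SE 0.25, edgeR adjusted p = 0.00198). Unexercised fish had 2227 ± 349 CPM (SD, n = 5), so the mean levels of the 3 groups stood in the order unexercised, exercised at 9 weeks and exercised at 27 weeks.

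On TMM scaling the calls of the other 3 genes each ended without one of the sets of 27-week libraries. Rank 16 had 10486 ± 2595 CPM (SD, n = 5) in exercised 9-week fish, 24163 ± 3952 CPM (SD, n = 5) in 27-week libraries 1 to 5 and 14974 ± 4512 CPM (SD, n = 5) in libraries 6 to 10. The log2 fold change was 0.83 (SE 0.27, edgeR adjusted p = 0.0227). Without libraries 1 to 5 it was 0.69 and no longer passed (adjusted p = 0.131). On column totals without those libraries it was 0.51 and did not pass either (edgeR adjusted p = 0.168). Rank 28 had 1973, 1683, 2717, 3528 and 3348.5 CPM in exercised 9-week fish. At 27 weeks it had 3578 ± 629.8 CPM (SD, n = 5) in libraries 1 to 5 and 6469 ± 1815 CPM (SD, n = 5) in libraries 6 to 10. The change was 0.98 on the log2 scale (SE 0.34, edgeR adjusted p = 0.0343) and 0.16 without libraries 6 to 10 (adjusted p = 0.619). On column totals without libraries 6 to 10 it was 0.43 and did not pass either (edgeR adjusted p = 0.106).

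Rank 38 was higher by the least, by 0.47 on the log2 scale (SE 0.17, edgeR adjusted p = 0.0399). It stood at 2324, 2800.3, 2547, 2918 and 2374 CPM in exercised 9-week fish and between 3268 and 4077 CPM, with a median of 3519.6 CPM, at 27 weeks, without overlap. The call ended without libraries 6 to 10 on TMM scaling (log2 fold change 0.10, adjusted p = 0.537) and with TMM factors computed from the genes outside the 50 (0.43, adjusted p = 0.0596). On column totals it held without libraries 6 to 10 (0.39, edgeR adjusted p = 0.00200).

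Among the genes that fell, rank 32 (Nfu_g_1_016181, 2899 bases) showed the largest decrease. It stood at 3710.2, 3276.5, 3516, 4760.5 and 4064 CPM in exercised 9-week libraries. In 27-week libraries 1 to 5 it had 896, 967, 897, 1043 and 819 CPM, and in libraries 6 to 10 it had 2638, 2108, 1543, 1877 and 1987 CPM. Both sets of 27-week libraries lay below all 9-week libraries and apart from each other. The log2 fold change was -1.33 (SE 0.30, edgeR adjusted p = 0.00232). It was -0.76 without libraries 1 to 5 and -2.34 without libraries 6 to 10, both past the threshold (edgeR adjusted p = 0.000259 and 1.17e-09).

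Rank 23 (Nfu_g_1_000099, 1806 bases) had 4082, 3940.3, 3649, 5184 and 4315 CPM in exercised 9-week libraries. Its 27-week values were 1311, 1603, 1310.2, 1596 and 1846 CPM in libraries 1 to 5 and 3247, 2123, 2015, 2446 and 2209 CPM in libraries 6 to 10. All 10 lay below the exercised 9-week libraries, and libraries 6 to 10 all lay above libraries 1 to 5. The log2 fold change was -1.08 (SE 0.22, edgeR adjusted p = 0.00117). Leaving out libraries 6 to 10 gave -1.74 and leaving out libraries 1 to 5 gave -0.65, each past the threshold (edgeR adjusted p = 7.58e-09 and 0.000286).

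Ranks 30 and 22 fell with either set of 27-week libraries. Rank 30 had 3245 ± 543 CPM (SD, n = 5) in exercised 9-week fish, 1531 ± 126.2 CPM (SD, n = 5) in 27-week libraries 1 to 5 and 1888 ± 439 CPM (SD, n = 5) in libraries 6 to 10. Its log2 fold change was -0.92 (SE 0.17, edgeR adjusted p = 0.000564). Rank 22 had 5069.6 ± 949 CPM (SD, n = 5), 3328 ± 502 CPM (SD, n = 5) and 3186 ± 607 CPM (SD, n = 5) in the same order, and its fold change was -0.65 on the log2 scale (SE 0.13, edgeR adjusted p = 0.00121).

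The other 6 decreases were smaller, between -0.55 and -0.41 on the log2 scale, at ranks 2, 12, 20, 25, 27 and 41. Rank 20 had 3509, 3741, 3886, 5661 and 4593 CPM in exercised 9-week fish and between 2019.8 and 3959 CPM, with a median of 2644 CPM, at 27 weeks. The groups overlapped for it, and the call was close to the threshold (log2 fold change -0.55, SE 0.21, edgeR adjusted p = 0.0495). On TMM scaling all 6 calls ended without 27-week libraries 1 to 5. On column totals without those libraries 5 of the 6 held, with rank 20 the exception.

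Under all 32 alternatives of scaling, filter, tool and samples, 6 genes passed the threshold in the same direction: ranks 18 and 45 higher and ranks 22, 23, 30 and 32 lower. The other 9 called genes lost their call under at least 3 alternatives, rank 2 under 17 and rank 20 under 21. None of the 15 changed sign under any. No alternative separates age from the blocks of sample codes. The share of all genes that kept a call under every alternative is not given, so these counts are a description. Leaving out any single exercised 9-week library lowered the counts. Without library 1 there were 3 higher and 9 lower, where 15.5% and 16.6% of all genes were. Without library 2 there were 4 and 6, against 12.5% and 15.1%, and without library 3 there were 3 and 5, against 11.8% and 14.9%. Without library 4 there were 3 and 8, against 12.9% and 14.2%, and without library 5 there were 3 and 5, against 10.4% and 13.1%. Without 27-week library 7 there were 3 higher and 14 lower, against 15.3% and 17.3%.

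**Figure D4:**
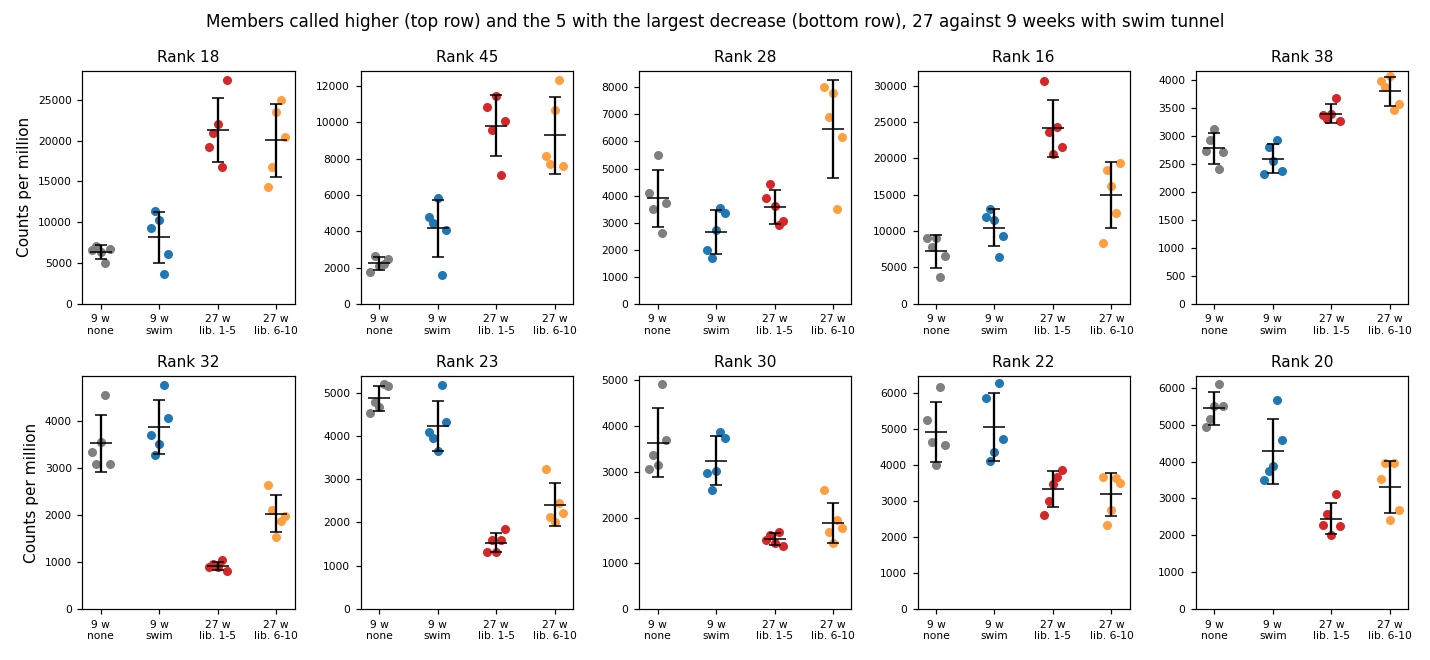
CPM (vertical axes, from 0) of the 5 genes higher with age (top row) and the 5 with the largest decrease (bottom row), with points for libraries and bars for mean and SD. The 2 sets of 27-week libraries overlapped for ranks 18 and 45 and lay apart for ranks 16, 23 and 32.

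The 27-week libraries stood in 2 sets, libraries 1 to 5 and 6 to 10, whose labels gave the same strain, sex, tissue, age and exercise. This division was known from earlier results on the same data, so its differences are given with no test. The 50 genes together held a similar share in both, 57.5% ± 1.83 (SD, n = 5) in libraries 1 to 5 and 59.1% ± 2.98 (SD, n = 5) in libraries 6 to 10. The other genes were distributed differently. On column totals the median gene of all those tested was lower by 0.42 on the log2 scale in libraries 6 to 10, at -0.42, while the median of the 50 was 0.12.

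How the sets compared therefore depended on the scaling. The TMM factors were 1.17 ± 0.0557 (SD, n = 5) in libraries 1 to 5 and 0.869 ± 0.076 (SD, n = 5) in libraries 6 to 10, against 0.987 ± 0.0881 (SD, n = 5) in exercised 9-week fish. On column totals 41 of the 50 means were higher in libraries 6 to 10 and 9 were lower. All libraries of that set lay above those of the other for 13 genes and below for 1, where 4.91% and 28.7% of all genes tested did so. After TMM scaling 49 of the 50 means were higher in libraries 6 to 10. Their median was 0.55 on the log2 scale, against 0.01 for all genes tested. The share of all genes with a higher mean is not given for either scaling. Of the 50 genes 32 did not overlap after TMM scaling, all higher, where 15.7% of all genes were higher and 14.2% lower without overlap.

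The age comparison carried this over. Without libraries 6 to 10, so that libraries 1 to 5 stood for 27 weeks, 3 of the 50 genes were higher and 29 lower with TMM scaling (edgeR adjusted p under 0.05), against 22.4% and 28.1% of all genes. Without libraries 1 to 5, 14 were higher and 4 lower, against 9.95% and 13.5%. The genes of ranks 37, 40, 44 and 48 were called in opposite directions in these 2 fits. On column totals, an alternative chosen after seeing the data, the counts were 9 higher and 17 lower without libraries 6 to 10, where 33.7% and 17.8% of all genes were. Without libraries 1 to 5 they were 12 higher and 11 lower, against 5.77% and 19.3%. No gene was then called in opposite directions, 4 were higher in both fits and 11 lower in both. These fits share their 9-week libraries. Shares over all genes for calls in both fits, alike or opposite, are not given, so nothing is read from those counts.

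**Figure D5:**
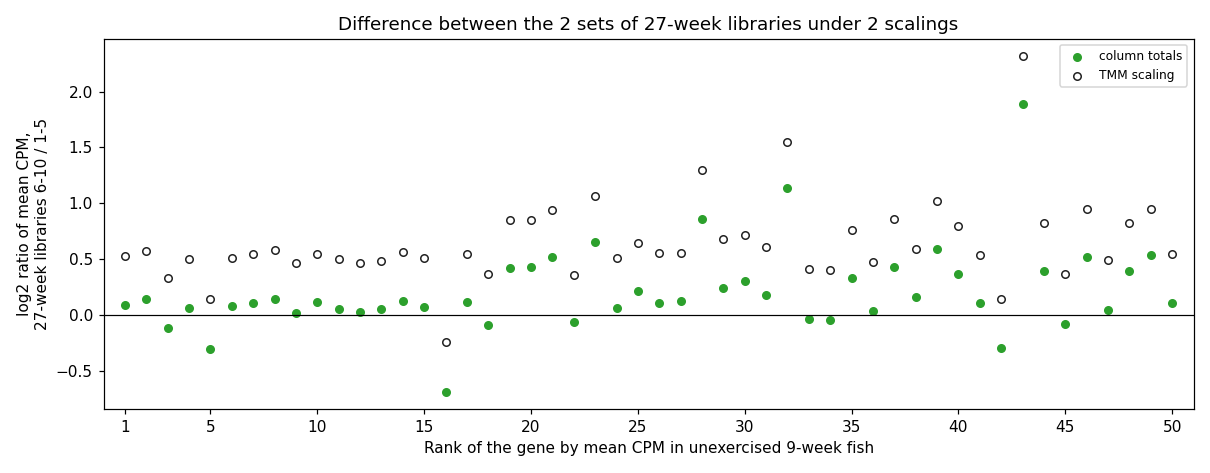
Log2 ratio of mean CPM in 27-week libraries 6 to 10 over libraries 1 to 5 for each of the 50 genes, scaled by column totals (green) or TMM (open). On column totals 41 genes lay above 0 and with TMM 49 did; rank 43 lay highest on both and rank 16 lowest.

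Rank 43 (1875 bases) differed most between the sets. It stood at 160.5, 293, 253, 209.7 and 289.6 CPM in 27-week libraries 1 to 5 and at 1189.8, 1185.5, 755, 597 and 734 CPM in libraries 6 to 10. The sets did not overlap. The log2 ratio of their means was 1.89 on column totals and 2.32 after TMM scaling. The unexercised fish had 1795, 1676, 1888, 3859 and 2486 CPM and the exercised fish of 9 weeks 1193, 997, 1088, 1849 and 1657 CPM. Its age difference did not pass in edgeR with TMM scaling and all libraries (log2 fold change -1.15, SE 0.45, edgeR adjusted p = 0.0546). It did without libraries 6 to 10 (-2.77, edgeR adjusted p = 4.77e-08) and on column totals (-1.26, edgeR adjusted p = 0.0202). With all libraries it also passed in DESeq2 (-1.16, adjusted p = 0.0304) and limma-voom (-1.57, adjusted p = 0.0176). With upper-quartile scaling it did not (-1.07, edgeR adjusted p = 0.0675). Without libraries 1 to 5 it failed with TMM scaling (-0.42, edgeR adjusted p = 0.1799) and with column totals (-0.60, edgeR adjusted p = 0.0989). Its call with age therefore depended on libraries 1 to 5 and on the scaling and tool.

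Rank 16 lay the other way, with all of libraries 1 to 5, at 20678 to 30716 CPM, above all of libraries 6 to 10, at 8414 to 19355 CPM. The log2 ratio of means was -0.69 on column totals and -0.24 after TMM scaling, the only value below 0 among the 50 on that scale. Rank 5 was the next lowest on column totals, at 40887 ± 5488 CPM (SD, n = 5) in libraries 1 to 5 and 33176 ± 5757 CPM (SD, n = 5) in libraries 6 to 10. Its log2 ratio turned from -0.30 to 0.14 after TMM scaling.

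Between exercised and unexercised fish of 9 weeks none of the 50 genes passed the edgeR test, with 0 higher and 0 lower where 0.108% and 0.0721% of all genes were called. At an unadjusted p under 0.05 there were 5, at ranks 11, 24, 39, 42 and 45. The share of all genes at that level is not given here, so the 5 are not read as an excess. With limma-voom 0 of the 50 passed, against 0.24% of all genes, and with DESeq2 1 did, against 2.12%. That gene was rank 45, with a log2 fold change of 0.95 (DESeq2 adjusted p = 0.0362), against 0.96 in edgeR (SE 0.28, adjusted p = 0.142). Without exercised library 4, where this gene was lowest among exercised fish, it passed in edgeR (1.18, adjusted p = 0.0204). Leaving out that library favours a higher value with exercise, so nothing is read from that fit. Because the unexercised levels chose the genes, nothing further is read from these counts.

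The largest decrease with exercise at 9 weeks was that of rank 11 (941 bases). It stood at 17555, 15608, 12534, 10622 and 13319 CPM without exercise and at 4129, 9659, 4529.6, 7737 and 11392 CPM with it. The groups overlapped by 1 library (log2 fold change -0.88, SE 0.32, edgeR adjusted p = 0.224). Rank 6 and rank 25 were the only genes of the 50 whose 9-week groups did not overlap, where 2.25% of all genes did not overlap and were higher with exercise and 1.82% lower. Rank 6 had 27177 to 31597 CPM without and 33207 to 40745 CPM with exercise. Rank 25 had 4473 to 4831 CPM without and 3163 to 4342 CPM with exercise.

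Between 27-week exercised and 9-week unexercised fish, 8 of the 50 genes were higher and 12 lower (edgeR adjusted p under 0.05), where 21.2% and 18.9% of all genes were. Age and exercise differ together here and the unexercised libraries chose the genes, so the counts are given as a description. The values ran from -1.89 on the log2 scale for rank 43 to 2.11 for rank 45. Without unexercised library 4 there were 4 higher and 13 lower, where 16.8% and 16.2% of all genes were, and without unexercised library 5 there were 4 and 11, against 18.6% and 17.1%. Without 27-week libraries 6 to 10 there were 4 higher and 30 lower, against 27.1% and 29.0%. Without 27-week libraries 1 to 5 there were 14 higher and 9 lower, against 12.0% and 14.4%. This comparison shares its 27-week libraries with the age comparison.

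Several abundant genes stood close to each other in the row order of the table, which is not stated to be the order in the genome. There were 5 pairs of the 50 genes within 5 rows. Ranks 33 and 34, in adjacent rows, kept nearly the same ratio of counts in all libraries, 1.07 ± 0.0254 (SD, n = 5), 1.06 ± 0.0298 (SD, n = 5) and 1.09 ± 0.0258 (SD, n = 10) in unexercised, exercised 9-week and 27-week fish. The very long genes of ranks 12 and 13, 3 rows apart, had ratios of 1.19 ± 0.0977 (SD, n = 5), 1.16 ± 0.062 (SD, n = 5) and 1.09 ± 0.049 (SD, n = 10). How reads from near-identical or overlapping genes were assigned is not stated in the labels or processing notes, so the counts within such pairs may be split between them.

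The ratios of the other pairs varied more between the 9-week libraries of a group, relative to their means. Rank 6 over rank 11, in adjacent rows, was 2.17 ± 0.443 (SD, n = 5) in unexercised fish, 5.96 ± 3.10 (SD, n = 5) in exercised 9-week fish and 3.91 ± 1.51 (SD, n = 10) at 27 weeks. All exercised 9-week libraries, at 2.91 or more, lay above all unexercised libraries, at 2.56 or less. The unexercised levels chose both genes and no share over other pairs of genes is given, so this is a description. Rank 7 over rank 15, 4 rows apart, was 2.38 ± 0.526 (SD, n = 5), 1.83 ± 0.254 (SD, n = 5) and 1.79 ± 0.0762 (SD, n = 10). At 27 weeks this ratio stayed between 1.65 and 1.89. Ranks 36 and 49, 2 rows apart, had ratios of 1.43 ± 0.282 (SD, n = 5), 1.34 ± 0.375 (SD, n = 5) and 1.44 ± 0.608 (SD, n = 10).

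The abundant genes differed widely in how steady they were within a group. The coefficient of variation of CPM (SD over mean) had a median of 10.5% over the 50 genes in unexercised fish, 14.8% in exercised 9-week fish and 15.6% at 27 weeks. For all genes with at least 1 CPM in unexercised fish the medians were 18.8%, 20.7% and 29.3%, and for ranks 51 to 100 they were 10.2%, 15.2% and 17.1%. Rank 4 was steadiest over the 3 groups, with coefficients of 3.33%, 4.97% and 4.88%. Rank 14 followed with 4.12%, 4.21% and 7.23%, and stood at 10424 ± 429.6 CPM (SD, n = 5), 10097 ± 425 CPM (SD, n = 5) and 10579 ± 765 CPM (SD, n = 10). These coefficients hold for column totals. After TMM scaling the 2 sets of 27-week libraries differed for both genes. The means of libraries 6 to 10 were then higher by 0.50 on the log2 scale for rank 4 and by 0.56 for rank 14. Rank 43 varied most, with 38.6%, 27.6% and 69.0%, followed by rank 28 with 27.1%, 30.8% and 39.6%. The 27-week values pool both sets of libraries. Within libraries 1 to 5 and 6 to 10 the coefficients were 23.4% and 31.0% for rank 43 and 17.6% and 28.1% for rank 28.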

How the data were processed

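Libraries were made with Illumina's TruSeq RNA kit v2, per the labels' protocols. Per the submitters' processing notes, featureCounts 1.4.6-p4, the aligner STAR 2.4.1d and bcl2fastq 1.8.4 were used. Build, annotation, strandedness and tool settings are not given in the sources used, so reads of overlapping or antisense genes cannot be told apart. The deposited count table held whole counts per gene for 20 libraries, with 0 unused columns. The authors' deposited RPKM table was not scaled by each library's own total: implied lengths of the 50 genes had a median range over libraries of 0.903 on the log2 scale with own totals, and of at most 1.07e-05 with the totals taken in turn down the rows. It was used for gene lengths only.

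Libraries of a group differed far beyond sampling noise (chi-square per degree of freedom of 29.6 or more), so none was counted as a duplicate. In R 4.3.3 with edgeR 4.0.16, genes were filtered by filterByExpr (minimum count 10), scaled by TMM, and fitted by quasi-likelihood with group as the only term over all 20 libraries. Adjusted p-values are Benjamini-Hochberg over all 16653 tested genes, with a threshold of 0.05. SE is the absolute log2 fold change over the square root of F. DESeq2 1.42.0 and limma-voom (limma 3.58.1) were alternatives. The test was checked on simulated counts.

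The members, gene lists and alternatives were chosen with earlier results of these data known. Genes described singly were ranks 1 to 5, the 5 largest increases and decreases called with age, the extremes between the 27-week sets and in variation, and those whose call ended under an alternative. Genes outside this rule (ranks 6, 7, 11, 13, 15, 24, 33, 34, 36, 37, 39, 40, 42, 44, 46, 48 and 49, and the gene at rank 98 in unexercised fish) were chosen after their values were seen. Muscle and other cell type lists had no member that could be found.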

Additional observations from a re-analysis of the deposited data

Results flagged for a closer look

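For each of the 50 genes and their summed share, each group of 5 or 10 libraries was searched for a library whose gap to the nearest other one made up an unusual part of the group's range. This held in 10 of 153 groups, where chance gives about 1 in 20, or 7.65.

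In exercised 9-week fish, library 4 was high for rank 4, at 37171 CPM against 32900.5 to 33724 CPM in the other 4 libraries. The same library was high for rank 39, at 2596 against 1091 to 1524 CPM, and for rank 44, at 2464 against 1641 to 1861 CPM. Library 2 of this group was low for rank 13, at 9234 against 12853 to 13799.8 CPM, and high for rank 29, at 5111 against 3655 to 3754 CPM. In unexercised fish, library 4 was low for rank 36, at 2395 against 2946 to 3133 CPM.

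At 27 weeks, library 6 was high for rank 30, at 2605 against 1384 to 1947 CPM in the other 9 libraries, and for rank 49, at 3801 against 1213 to 2319 CPM. It was low for rank 33, at 3767 against 4831 to 5977 CPM. Library 8 was high for rank 47, at 2523 against 2037 to 2284 CPM. What sets these libraries apart was not tested.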

How the results depend on the processing

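No paired analysis was possible because the labels give no replicate numbers. For age among exercised fish, where 5 genes were higher and 10 lower, the numbers were 11 and 16 with column totals, and 14 and 4 without 27-week libraries 1 to 5. They were 3 and 29 without libraries 6 to 10, and 2 and 4 at an adjusted p of 0.01. For the 50 genes chosen by CPM per kilobase they were 3 and 4, where 14.8% and 16.8% of all genes tested were. On column totals the numbers for the original 50 genes were 12 and 11 without libraries 1 to 5, and 9 and 17 without libraries 6 to 10. With the 50 genes chosen by their 27-week levels, 8 were higher and 7 lower. That choice favours genes higher at 27 weeks, so nothing is read from it. Leaving out single libraries gave 3 to 5 higher and 5 to 14 lower genes. For 27 weeks against unexercised fish, with 8 and 12, the numbers were 14 higher without libraries 1 to 5, 4 higher and 30 lower without libraries 6 to 10, 21 lower on column totals without the latter, and 3 higher at 0.01; single libraries gave 4 to 9 and 9 to 13. For exercise at 9 weeks DESeq2 called 1 gene higher, and single libraries gave 0 to 1 higher and 0 lower. Nothing is read from counts whose share over all genes is not given here or above, such as those at 0.01.

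The member list shared 28 genes with the list per kilobase and 25 with a list of 25 genes, and 49 whenever 1 unexercised library was left out. Summed shares without single libraries were 54.4% to 56.5%, 57.3% to 59.2% and 57.9% to 58.7% in unexercised, exercised 9-week and 27-week fish. Genes with 27-week libraries 6 to 10 all above libraries 1 to 5 numbered 13 on column totals and 32 with TMM. With TMM computed without the 50 genes there were 33, where 2703 of all 16653 genes tested did so. Those below numbered 1, 0 and 0, and on the last scaling 2268 of all genes tested lay below. Of 672 values of named genes under the alternatives, 558 kept direction and side of the threshold, 77 lost and 8 gained a call. The sign changed in 29, over 5 genes (ranks 1, 3, 4, 5 and 14), of which 28 passed in neither fit. The other one was rank 14, at -0.29 without libraries 6 to 10 against 0.05. The causes were not tested.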
